A study of Homo sapiens and Mus musculus with 7 samples.

Results

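Fas and the TRAIL receptors are cell surface death receptors, and the genes of their pathway were followed here through loss of FAS in a pair of human cancer cell lines and in mouse liver. The 10 genes were FAS, TNFRSF10A, TNFRSF10B and TNFRSF1A (receptors), TNFSF10 (the ligand TRAIL), FADD and RIPK1 (adaptors), CASP8 and CASP10 (initiator caspases) and CFLAR (an inhibitor). A probe set, the group of short probes on an array that reports 1 transcript, was included when its single annotated gene symbol was on this list. That gave 38 of 54613 human probe sets, for 9 genes, and 15 of 45037 mouse probe sets, for 7 genes. RIPK1 was not analysed here, nor were Casp10 and Tnfrsf10a in the mouse.

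RNA from 7 samples was hybridised to Affymetrix arrays, 5 human and 2 mouse, with 1 array in each group. HeyA8 is an established human ovarian cancer line, and it was measured with the empty hairpin vector (PLKO control) and with stable FAS knockdown by either of 2 short hairpin RNAs, shRNA4 and shRNA6. HepG2, an established human liver cancer line, was measured with the PLKO control and with stable knockdown by shRNA6. Mouse liver came from a wild-type and a Fas knock-out animal, both male C57/BL6 of 2 months. All 5 human samples thus carried a vector, and both HeyA8 knockdowns were set against the same control array. The labels do not say how the Fas allele was made, whether knockdown cells were clones or pools, or how many animals gave the liver RNA. With 1 array in each group, single comparisons have no replicates and no test, and the precision is limited by the number of arrays.

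Fas and the TRAIL receptors carry a death domain inside the cell. When a ligand brings the receptors together, the adaptor FADD joins them to procaspase-8 and procaspase-10, which cut and activate each other and then further caspases. The protein encoded by CFLAR, c-FLIP, resembles these caspases, enters the same complex and limits their activation. TNFRSF1A, the main TNF receptor, reaches FADD and caspase-8 only through a second complex in which RIPK1 takes part. Hepatocytes are known for their sensitivity to death through Fas, in which mitochondrial amplification through BID is needed.

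The deposited values are signals on a linear scale from MAS5, the array maker's summary of the probes of a probe set. Array medians lay between 57.8 and 63.4 on the human arrays and were 79.9 and 75.2 on the mouse arrays. Differences are given as the log2 ratio of (signal + c), where c was 12.6 on human and 20.5 on mouse arrays, so that the ratios of dim probe sets are understated. A ratio of -1 on this scale is a 2-fold lower value. To be kept, a probe set had to exceed the array median on 1 or more of the arrays compared, and 32 of the 38 human and 12 of the 15 mouse probe sets passed in at least 1 comparison. The 8 hepatocyte markers tested were all higher in HepG2 than in HeyA8 (limma adjusted p under 0.05), where 26.5% of all probe sets were.

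The targeted gene was lower on every knockdown array than on its control, in each of its 4 kept probe sets. The FAS probe set 204780_s_at gave 2104 in the HeyA8 control, 1184 with shRNA4 and 856 with shRNA6, and 1087 in the HepG2 control and 631 with shRNA6. The FAS probe set 204781_s_at gave 1527, 701 and 506 in HeyA8, in that order, and 920.4 and 453 in HepG2. The FAS probe set 215719_x_at gave 1507, 632 and 489 in HeyA8, and 681 and 303 in HepG2. In all 3 the order within HeyA8 was control, shRNA4, shRNA6. The fourth kept FAS probe set, 216252_x_at, gave 891, 458 and 215 in HeyA8, and 403 and 234 in HepG2. Knockdown left 41.9% to 56.3% of the control signal with shRNA4, 24.2% to 40.7% with shRNA6 in HeyA8 and 44.5% to 58.1% with shRNA6 in HepG2. The unknocked HepG2 level lay between the HeyA8 control and the HeyA8 shRNA4 level in 2 probe sets (204781_s_at and 215719_x_at) and below the shRNA4 level in the other 2, so that the HepG2 control held less FAS signal than the HeyA8 control in each. The remaining FAS probe set, 233820_at, was below the array median throughout, at 37.3, 3.70, 12.9, 4.99 and 2.17 in the same order of samples.

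**Figure D1:**
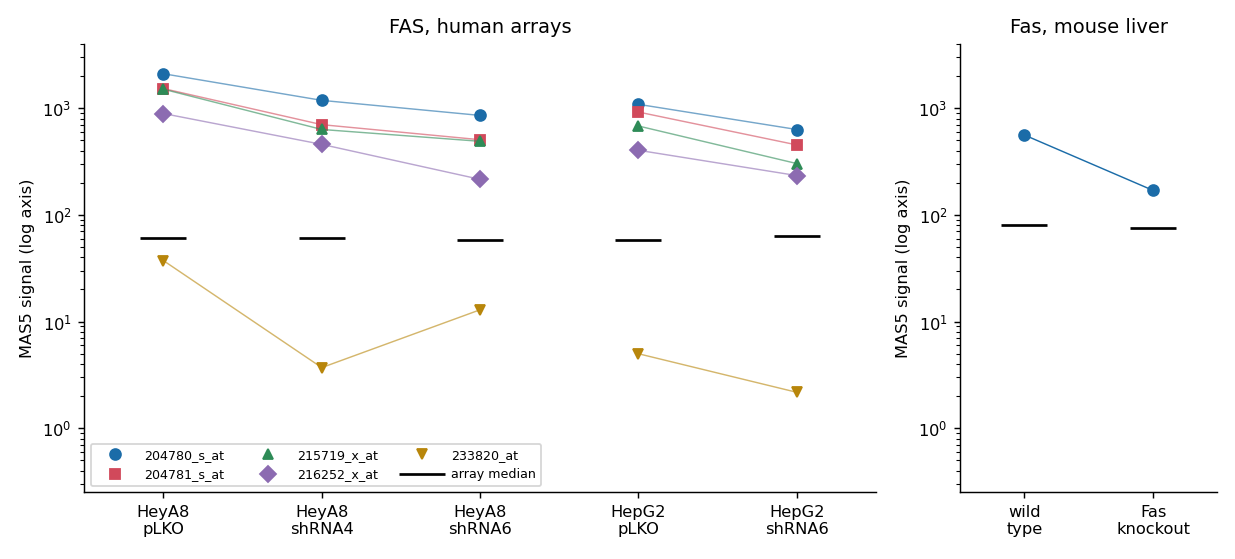
MAS5 signal (log axis) of the 5 human FAS probe sets on the 5 human arrays and of the mouse Fas probe set on the 2 liver arrays. Each point is 1 array, thin lines join arrays of 1 cell line or tissue, and black bars mark array medians; 4 human probe sets lie above the medians on every array and are lower with each hairpin, and mouse Fas is at 560.2 in wild-type and 169 in knockout liver.

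Counted by size, FAS and TNFSF10 were the human members with a kept probe set at least 2-fold from control on the log2(signal + c) scale. With shRNA4 in HeyA8, 2 of 27 kept probe sets were at least 2-fold lower, both of FAS, and 0 were higher, while 5.26% of all kept probe sets (2.71% lower, 2.55% higher) passed this size. With shRNA6 in HeyA8, 4 of 28 were at least 2-fold lower, all of FAS, and 0 higher, against 4.48% of all kept probe sets in either direction, 2.48% lower and 2.0% higher. With shRNA6 in HepG2, 5 of 32 passed, 2 lower (FAS) and 3 higher (TNFSF10), against 5.8% of all kept probe sets, 2.69% lower and 3.12% higher. Without FAS the kept probe sets had a median log2 ratio of 0.15 with shRNA4 and -0.04 with shRNA6 in HeyA8, and 0.06 in HepG2, where all kept probe sets had 0.01, -0.01 and -0.00.

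**Figure D2:**
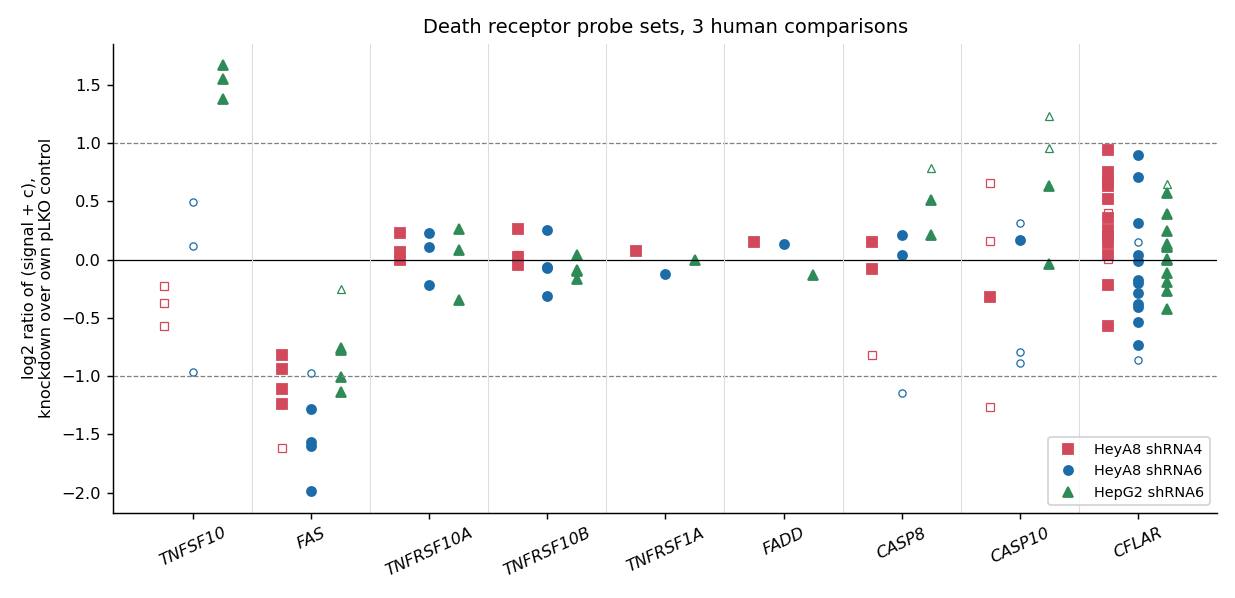
Log2 ratio of (signal + c), knockdown over the control of the same cell line, for all 38 human probe sets of the 9 death receptor genes in the 3 human comparisons. Filled symbols are probe sets kept in that comparison, open symbols are those below the median on both arrays, and dashed lines mark 2-fold; filled symbols beyond the lines belong to FAS (lower) and, in HepG2, to TNFSF10 (higher).

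TNFSF10 encodes TRAIL, the ligand of the receptors encoded by TNFRSF10A and TNFRSF10B, and is known as a gene that interferons induce. All 3 of its probe sets were higher in HepG2 with shRNA6 than in the HepG2 control. The TNFSF10 probe set 202687_s_at gave 169.7 in the HepG2 control and 521 with shRNA6, which is 1.55 as a log2 ratio. The TNFSF10 probe set 202688_at gave 125 and 426 there (1.67), and 214329_x_at gave 224 and 600.5 (1.38). The knockdown signals were 268% to 339% of the control. In HeyA8 the same 3 probe sets were below the median on all 3 arrays, at 4.16, 1.75 and 10.9 for 202687_s_at, at 42.1, 24.3 and 46.8 for 202688_at and at 45.5, 32.3 and 17.1 for 214329_x_at (control, shRNA4, shRNA6). None was therefore kept there, and at these signals the 3 probe sets did not share an order over the HeyA8 arrays. Both HepG2 arrays lay above all HeyA8 arrays in every TNFSF10 probe set. How often this holds was not counted over all probe sets, so it adds no support.

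The TNFSF10 promoter is shown because this gene stood apart in HepG2 and because interferon-stimulated response elements have a known core. The sequence is the 250 bases before the gene's start, from RefSeq (GRCh38.p14), minus strand, 5′ to 3′, with matches to the core of that element (GAAA, any 2 bases, GAAA; found here on the opposite strand and so written as its reverse complement) and to TATAAA in capitals.
TNFSF10, chr3:172523431-172523680: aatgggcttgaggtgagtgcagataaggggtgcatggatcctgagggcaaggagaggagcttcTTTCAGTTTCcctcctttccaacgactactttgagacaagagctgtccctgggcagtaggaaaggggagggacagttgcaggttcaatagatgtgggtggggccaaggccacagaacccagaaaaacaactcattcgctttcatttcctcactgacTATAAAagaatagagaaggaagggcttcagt
The first match begins at position -187 and the second at -31, counted from the start. Of 35116 RefSeq windows of this kind (250 bases before to 50 after a start), 3.57% held this core and 11.5% held TATAAA, both strands searched. Windows were used for 6 of the genes, 13 windows in all, and the core was also found at position -3 in 1 of the 3 CASP8 windows, on the opposite strand.
CASP8, chr2:201233445-201233474, plus strand: gctctgagtttttggTTTCTGTTTCacctt
That CASP8 window also held TTCNNNGAA, the palindromic core bound by STAT dimers, at position -200, a motif present in 7.66% of all windows. A match describes these letters and does not show that a factor binds there.

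A list of 20 interferon-stimulated genes was set beside TNFSF10, of which 17 were annotated and 11 or 12 kept per human comparison. In HepG2 with shRNA6, 9 of 11 lay above 0 and 2 below, with a median log2 ratio of 0.35 against -0.01 over all genes. The largest were IFIT1 (1.57), which binds viral RNA, OASL (0.89), XAF1 (0.71) and IFIT3 (0.58), the last with a further kept probe set in the opposite direction (-0.50). In HeyA8 the list lay the other way, with 9 of 12 below 0 with shRNA4 (median -0.29 against 0.03 over all genes) and 12 of 12 with shRNA6 (median -0.57 against 0.01). With shRNA4 the largest were OAS2 (-1.24), IFIT1 (-1.21), IFIT2 (-1.14) and OASL (-0.91), and with shRNA6 OAS2 (-2.34), IFI44L (-1.27), IFIT2 (-0.84) and IFI6 (-0.82). All 3 medians rest on dim genes: among the list genes above the 75th percentile on at least 1 array compared, it was 0.05 with shRNA4 (3 genes) and -0.28 with shRNA6 (2 genes) in HeyA8, and 0.13 in HepG2 (3 genes). Whether the interferon genes have a part in the TNFSF10 difference was not tested.

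**Figure D3:**
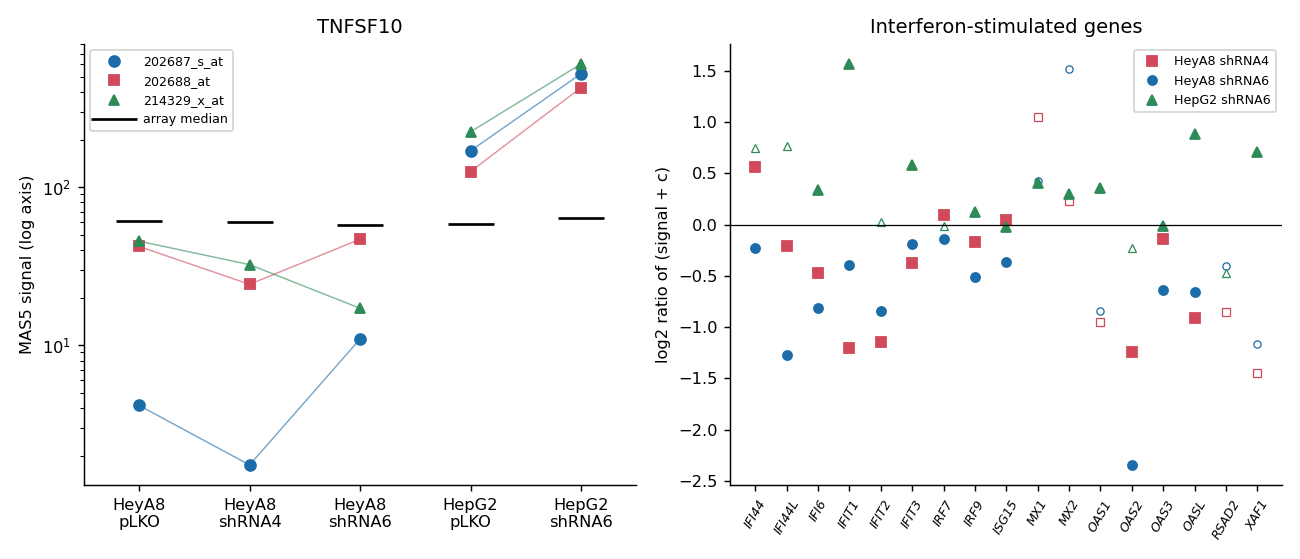
Left, MAS5 signal (log axis) of the 3 TNFSF10 probe sets on each human array, with black bars at the array medians: all points of HeyA8 lie below the medians and all points of HepG2 above them, higher with shRNA6 than in the control. Right, log2 ratio of (signal + c) of 17 interferon-stimulated genes (brightest probe set) in the 3 human comparisons, filled where kept; 9 of 11 filled HepG2 points lie above 0 and 12 of 12 filled HeyA8 shRNA6 points below it.

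The TRAIL receptor genes, on which TNFSF10 acts, did not reach a 2-fold difference in any human comparison. TNFRSF10A, which encodes TRAIL receptor 1, gave 1277, 1493 and 1379.7 in HeyA8 (control, shRNA4, shRNA6) and 677 and 718 in HepG2 (control, shRNA6) at its probe set 231775_at, log2 ratios of 0.22, 0.11 and 0.08. Its other probe sets gave -0.01, -0.22 and 0.26 (1552648_a_at) and 0.06, 0.23 and -0.35 (241371_at), so that no direction was shared. TNFRSF10B, which encodes TRAIL receptor 2, gave 7459, 7554 and 5989 in HeyA8 and 6384 and 5680.3 in HepG2 at 209295_at, ratios of 0.02, -0.32 and -0.17. Its probe sets 209294_x_at (0.26, -0.07 and -0.09) and 210405_x_at (-0.05, -0.06 and -0.10) differed as little. The TNFRSF10B probe set 1556645_s_at was near the array medians, at 57.1 to 70.6 in HeyA8 and 80.3 and 82.9 in HepG2.

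TNFRSF1A gave 3362 in the HeyA8 control, 3537 with shRNA4 and 3083 with shRNA6, and 1538 and 1533 in HepG2, ratios of 0.07, -0.12 and -0.01. The TNFRSF1A signal was thus closer to its own control on every knockdown array than the levels of the cell lines were to each other. FAS and TNFRSF10B are known targets of the transcription factor p53, and 13 or 14 genes of a p53 target list were kept in the human comparisons. With shRNA4 in HeyA8, 11 of 13 lay above 0 with a median of 0.32 against 0.03 over all genes, the largest ZMAT3 (0.62), PHLDA3 (0.59), AEN (0.57) and SESN1 (0.50). With shRNA6 4 of 13 lay above 0 in HeyA8 (median -0.08, the largest in size AEN at 0.47, SESN1 at -0.43, SESN2 at -0.40 and RRM2B at -0.35) and 3 of 14 in HepG2 (median -0.08, the largest CDKN1A at -0.59). None of these genes reached 2-fold, and their part in the levels of FAS or TNFRSF10B was not tested.

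FADD, the adaptor that links Fas and the TRAIL receptors to the caspases, was measured by 1 human probe set. FADD gave 2276 in the HeyA8 control, 2530.1 with shRNA4 and 2497 with shRNA6, and 1323 and 1204 in HepG2. The log2 ratios were 0.15 and 0.13 in HeyA8 and -0.13 in HepG2, each far inside the 2-fold limit.

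CASP8 encodes the initiator caspase of the complex. The CASP8 probe set 213373_s_at gave 2212, 2087 and 2279.9 in HeyA8 and 1659 and 1919 in HepG2, ratios of -0.08, 0.04 and 0.21. The CASP8 probe set 207686_s_at gave 226, 252 and 264 in HeyA8 and 196 and 286 in HepG2, ratios of 0.15, 0.21 and 0.51. Both kept probe sets were thus higher with shRNA6 than in the control in HepG2, by less than 2-fold. The other CASP8 probe set, 1553306_at, was below the median on every array, at 4.33 to 24.7 in HeyA8 and 9.91 and 26.1 in HepG2.

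CASP10, which encodes a close relative of caspase-8 that mice lack, gave 61.2, 46.6 and 70.1 in HeyA8 at 205467_at, near the array median. The same CASP10 probe set gave 352 in the HepG2 control and 342 with shRNA6, a ratio of -0.04. The CASP10 probe set 210708_x_at passed the median only in HepG2, at 64.6 in the control and 107 with shRNA6 (0.63), and was at 17.5, 34.9 and 3.69 in HeyA8. The other CASP10 probe sets, 210955_at and 211888_x_at, were below the median on every array, at 2.63 to 47.5 and at 13.4 to 50.5.

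CFLAR had 14 probe sets, 12 of them kept, and 9 of the 14 carry the suffix _x_at, which marks probes that can bind transcripts of other genes. The CFLAR probe sets did not share a direction. With shRNA4 in HeyA8, 10 of 12 lay above 0 (median 0.30, from -0.57 to 0.94), with shRNA6 4 of 12 (median -0.19, from -0.74 to 0.90) and in HepG2 7 of 12 (median 0.06, from -0.42 to 0.57). On the log2(signal + c) scale none was 2-fold from control; in the signals alone 237367_x_at was, with both HeyA8 hairpins. CFLAR 209939_x_at gave 1122, 754 and 976 in HeyA8 and 3789 and 3499.6 in HepG2, ratios of -0.57, -0.20 and -0.11. CFLAR 210563_x_at gave 830.1, 711 and 734 in HeyA8 and 2788 and 2802 in HepG2 (-0.22, -0.17 and 0.01). In both of these probe sets the HepG2 arrays lay far above all HeyA8 arrays, which was likewise not counted over all probe sets.

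A pair of dimmer CFLAR probe sets had the highest ratios with both HeyA8 hairpins. CFLAR 237367_x_at gave 41.3, 91.0 and 87.8 in HeyA8, in the order above (0.94 and 0.90), and -0.27 in HepG2. Its HeyA8 signals were 220% and 213% of the control, and c brings these dim values below a 2-fold ratio. CFLAR 208485_x_at gave 71.1, 128 and 124 (0.75 and 0.71), and 0.11 in HepG2. The brightest CFLAR probe set without the _x_at suffix, 239629_at, gave 218, 252 and 164 in HeyA8 and 307 and 462 in HepG2, ratios of 0.20, -0.38 and 0.57. Further ones had hairpins of opposite sign or near 0 in HeyA8: 211862_x_at (0.52 and -0.74), 209508_x_at (0.35 and -0.53), 214486_x_at (0.26 and -0.41), 235427_at (0.63 and -0.01) and 211317_s_at (0.04 and -0.29). CFLAR 211316_x_at was at 0.67 and 0.04, and 210564_x_at at 0.15 and 0.31, with 0.39 in HepG2. CFLAR 214618_at (7.87 to 44.0) and 217654_at (4.0 to 13.4) were below the median on every array. Which transcripts of CFLAR each probe set reads was not analysed here.

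The 5 human arrays were next fitted together to ask whether a gene moved alike on the 3 knockdown arrays. The fit used limma on 27574 probe sets, with the cell line as a term and Benjamini-Hochberg adjustment over all of them. It called 0 of 32 death receptor probe sets, where 0.0% of all probe sets were called and 1176 had an unadjusted p under 0.05. The common effect of the FAS probe sets was -1.30 ± 0.16 (SE) for 215719_x_at, the lowest adjusted p among the members at 0.762. It was -1.20 ± 0.18 for 204781_s_at, -0.93 ± 0.16 for 204780_s_at and -1.16 ± 0.31 for 216252_x_at, with an adjusted p of 0.984 each. Each of the 3 knockdown arrays showed this direction in all 4. Over 13 alternative settings the adjusted p of 215719_x_at ran from 0.0608 to 0.999992, with no call in any. TNFSF10 had common effects of 0.74 ± 0.51, 0.59 ± 0.47 and 0.21 ± 0.48 (adjusted p 0.984, 0.984 and 0.990), with the HeyA8 part below the array medians.

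A second limma fit tested whether the knockdown effect in HepG2 differed from that in HeyA8, with a spread that rests on the difference between the HeyA8 hairpins. It called 0 of 32 death receptor probe sets, as 0.0% of all, where 1256 of all probe sets had an unadjusted p under 0.05. For TNFSF10 the difference was 1.89 ± 0.70 (SE) at 202688_at, 2.05 ± 0.65 at 214329_x_at and 1.42 ± 0.89 at 202687_s_at, with an adjusted p of 0.997 each. Over the alternative settings their lowest adjusted p was 0.694. A difference of the TNFSF10 response between the lines was therefore not called, although all 3 probe sets were 2-fold apart in HepG2. Of 16 interferon-stimulated genes 14 had a positive difference and 0 were called.

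The fitted difference between the cell lines was larger in size than the common knockdown effect in 25 of 32 probe sets, but in 0 of 4 for FAS, the targeted gene, and 1 of 2 for CASP8. The same count was not made over all probe sets, so nothing particular to these genes is read from it. In the common fit 20 of 32 probe sets differed between HepG2 and HeyA8 at an adjusted p under 0.05 (limma), 13 higher and 7 lower in HepG2. Of all 27574 probe sets 53% were called, 26.5% higher and 26.5% lower, so that a call here is the rule and not particular to these genes. The ligand and CASP10 were higher in HepG2. TNFSF10 was below the median on every HeyA8 array and entered the fit only through HepG2, so its fitted differences depend on c. Only a lower bound is given, with the HeyA8 signals raised to the array medians, and it was not tested. For the mean of both HepG2 arrays, TNFSF10 was at least 4.98-fold higher at 202687_s_at, 3.87-fold at 202688_at and 6.14-fold at 214329_x_at. That mean includes the shRNA6 array, at 268% to 339% of the HepG2 control, so these are not bounds for the control cells. The limma fit on log2(signal + c) gave an adjusted p of 0.000154, 0.00266 and 0.000573 in the same order. Without the HepG2 shRNA6 array the adjusted p of 202688_at was 0.148 and its call was lost. CASP10 205467_at was higher by 2.33 ± 0.27 (adjusted p 0.000130). CASP10 210708_x_at, below the median on every HeyA8 array, also entered only through HepG2. It was at least 1.39-fold higher for the mean of both HepG2 arrays (64.6 in the control and 107 with shRNA6). Its adjusted p of 0.0348 is likewise that of the limma fit on log2(signal + c). The call of 210708_x_at was lost in 6 of 11 alternative settings, among them without either HepG2 array or the HeyA8 control.

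FADD, TNFRSF1A and the called probe sets of FAS and TNFRSF10A were lower in HepG2, while the 1 called probe set of TNFRSF10B was higher. TNFRSF1A had a log2 difference of -1.11 ± 0.11 (SE, limma adjusted p 4.46e-05), and both HepG2 arrays lay below all 3 HeyA8 arrays. FADD had -0.94 ± 0.11 (adjusted p 0.000170), also with no overlap of the lines. How often the lines do not overlap was not counted over all probe sets, so this adds no support. TNFRSF10A 231775_at had -0.95 ± 0.12 (adjusted p 0.000220) and 1552648_a_at -0.69 ± 0.16 (adjusted p 0.00712), but 241371_at 0.09 ± 0.21 (adjusted p 0.747). FAS was lower in 3 of 4 probe sets, from -0.53 ± 0.18 to -0.97 ± 0.16, with the knockdown term in the model. The arrays of the lines overlapped in all 4. TNFRSF10B was called in 1 of 4 probe sets, 209294_x_at, at 0.53 ± 0.18 (adjusted p 0.0384), while 209295_at was at -0.24 ± 0.11 (adjusted p 0.117).

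The genes CFLAR, CASP10 and CASP8 lie next to each other in this order on chromosome 2 in RefSeq, and they did not differ alike between the lines. CFLAR was higher in HepG2 in 7 of 12 probe sets, most at 209939_x_at (1.90 ± 0.14 SE, limma adjusted p 9.93e-06) and 210563_x_at (1.85 ± 0.12, adjusted p 3.64e-06). The other 5 lay between 0.55 and 0.95, with limma adjusted p from 0.0202 to 0.0497. None of these 5 kept its call with each array left out in turn. CFLAR 235427_at had the opposite sign, at -0.72 ± 0.31 (adjusted p 0.0846). Of CASP8, 213373_s_at was at -0.28 ± 0.11 (adjusted p 0.0648) and 207686_s_at at -0.00 ± 0.19 (adjusted p 0.998), and neither passed. A difference between CASP8 and its neighbours was not itself tested.

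The count of 20 called probe sets depends on single arrays, since each line has few. Without the HeyA8 control it was 11, without the HepG2 control 11, without HepG2 shRNA6 12 and without HeyA8 shRNA6 16, and without HeyA8 shRNA4 it was 20. The share of all probe sets called moved alike, to 38.7%, 39.1%, 33.6%, 49.5% and 53.5% in the same order. Called in all 5 of these fits were CASP10 205467_at, CFLAR 209939_x_at and 210563_x_at, FADD, FAS 215719_x_at, TNFRSF10A 231775_at, TNFRSF1A, and TNFSF10 202687_s_at and 214329_x_at. HeyA8 and HepG2 also differ in cell type markers: 4 of 5 epithelial markers were higher and 3 of 4 mesenchymal markers lower in HepG2.

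**Figure D4:**
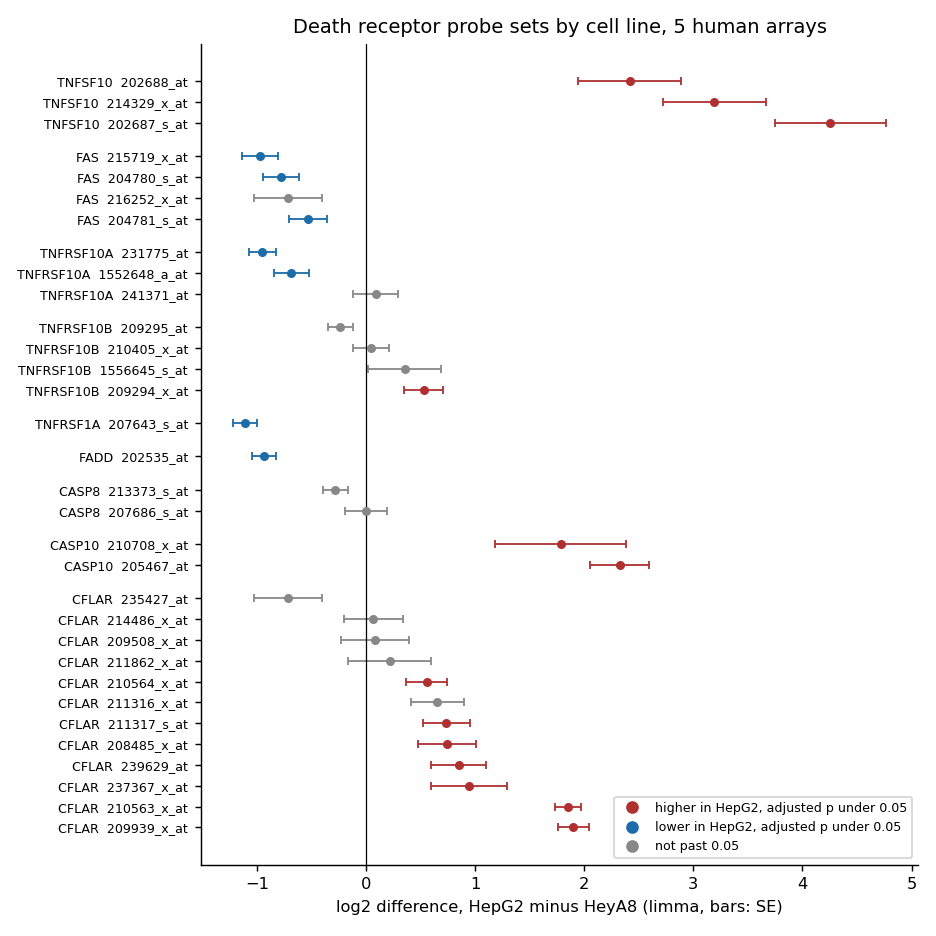
Log2 difference between HepG2 (2 arrays) and HeyA8 (3 arrays) from the limma fit with knockdown as a term, for the 32 death receptor probe sets tested; bars are standard errors and colour marks adjusted p under 0.05. TNFSF10 and CASP10 lie to the right, where the sizes of TNFSF10 and of CASP10 210708_x_at depend on c, FADD and TNFRSF1A to the left, and CFLAR spreads from -0.72 to 1.90.

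The other genes of the death receptor pathway were taken from lists of ligands, receptors, adaptors and ubiquitin ligases, necroptosis and execution genes, 47 in all, with 41 annotated on the human arrays. With shRNA4 in HeyA8 0 of 32 kept genes were 2-fold from control, with shRNA6 1 of 33 and in HepG2 1 of 27, where 4.76%, 4.22% and 5.22% of all genes were. The medians were -0.04, 0.01 and -0.02. The gene past 2-fold in HeyA8 was TNFSF15, which encodes the ligand TL1A, at 152 in the HeyA8 control, 129.9 under shRNA4 and 419 under shRNA6 (1.39 for shRNA6), while its other probe set gave 0.29. In HepG2 it was EDAR, the ectodysplasin receptor, at 19.3 in the control and 73.5 with shRNA6 (1.43). EDAR was below the array median in the control and kept only through the shRNA6 array, near its median of 63.4, so its size depends on c. FASLG, the ligand of Fas, was below the median on all human arrays, at 11.3 to 38.5 in its brightest probe set. BID, which caspase-8 cuts to engage mitochondria, gave 2608, 2943 and 2682 in HeyA8 and 1683 and 1885 in HepG2 (0.17, 0.04 and 0.16). RIPK3, a kinase of necroptosis, was below the median on all human arrays, at 7.89 to 40.3.

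Between the lines, 24 of 33 genes of these lists were called in the limma fit, 8 higher and 16 lower in HepG2. These calls are from the fit on 27574 probe sets, of which 53% were called, 26.5% higher and 26.5% lower. In a separate fit with 1 probe set per gene, 58.0% of all 13936 genes were called, 4176 higher and 3903 lower. The 6 with the largest fitted difference were TNFRSF11B, PEA15, TNFSF15, TNFRSF21, TNF and TNFRSF25. TNFRSF11B encodes osteoprotegerin, a secreted decoy receptor that binds TRAIL, and gave 4055, 2565 and 2150.1 in HeyA8 but 11.9 and 13.5 in HepG2, below the array medians. With the HepG2 signals raised to those medians, the mean of the 3 HeyA8 arrays was at least 46.3-fold higher, a bound that was not tested. The limma fit on log2(signal + c), which it entered only through HeyA8, gave an adjusted p of 8.28e-08. Within HeyA8 it was lower with both hairpins (-0.66 and -0.91), with -0.06 and -0.86 in its other probe set. PEA15, a death effector domain protein, was at -2.91 ± 0.12 (SE, adjusted p 2.76e-07). TNFRSF21, or death receptor 6, was higher in HepG2 at 2.70 ± 0.21 (adjusted p 1.10e-05), and TNFSF15, TNF and TNFRSF25 were lower, all of them below the median in HepG2 and at least 3.32-fold, 1.97-fold and 2.53-fold higher in HeyA8 on the same basis.

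In mouse liver 2 of 12 kept probe sets were at least 2-fold lower in the Fas knockout, 1 of Fas and 1 of Fadd, and 0 were higher, against 4.87% of all kept probe sets in either direction, 2.84% lower and 2.04% higher. Fas gave 560.2 in the wild-type and 169 in the knockout liver, 30.3% of the wild-type value (-1.61), still above the array median. Where this probe set lies relative to the deleted part was not analysed here, so its signal does not check the genotype label. Fadd 1446499_at gave 91.0 and 32.9 (-1.06), beside the brighter Fadd 1416888_at at 286 and 260.3 (-0.13), so the probe sets of this gene disagree. The Fadd difference rests on 1 probe set that was below the median in the knockout.

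The other mouse genes lay within 2-fold. Casp8 gave 2107 in wild-type and 1841 in knockout liver (-0.19), and Tnfrsf1a 1814 and 1989 (0.13). Cflar had 5 probe sets, at 1868 and 1901 (0.03), 1232 and 1019.7 (-0.27), 824 and 760.3 (-0.11), 222 and 172 (-0.34), and 94.3 and 90.4 (-0.05). Tnfsf10 was lower in its 2 kept probe sets, at 244 and 163 (-0.52) and 140.1 and 114 (-0.26), whereas it was higher in HepG2 with shRNA6. Its other probe set, 1420412_at, went the other way below the median, from 6.55 to 44.0. Tnfrsf10b, the single TRAIL death receptor of mice, was below the median in both livers, at 2.61 and 2.46 and at 29.2 and 6.32.

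Of the 12 kept mouse probe sets 10 lay below 0, with a median log2 ratio of -0.22 against -0.02 over all kept probe sets, of which 53.4% lay below 0. Without Fas, the targeted gene, 9 of 11 lay below 0 (median -0.19). These are not separate genes, since 5 of the probe sets are of Cflar. In their brightest probe sets Cflar (0.03) and Tnfrsf1a (0.13) lay above 0. Macrophage, pan-leukocyte and vessel markers were lower in the knockout liver too. All 4 macrophage markers lay below 0 (median -0.39, summed signal 12943.5 and 9771), as did 3 of 3 endothelial markers (median -0.32, summed 2799 and 2241) and Ptprc, the pan-leukocyte gene (732 and 593). T cell markers summed to 254 and 255 and B cell markers to 167 and 152, sums that include markers below the median in both livers. The 1 kept marker of each was at -0.19 (T cell) and -0.003 (B cell). Of the hepatocyte markers, 5 of 6 lay above 0 (median 0.03). The 3 cholangiocyte markers went both ways, with Epcam at 198 and 53.5 (-1.56, but 0.01 in its other probe set), Krt7 at 9.55 and 76.3 (1.69) and Krt19 at 24.5 and 70.6, below the median in both livers. Epcam was kept there only through the wild-type array. Krt7 was kept only through the knockout array, near its median of 75.2. In bulk liver fewer cells of a type and less RNA per cell cannot be told apart, and the part of these markers in the Fas, Fadd and Tnfsf10 values was not tested. Interferon-stimulated genes were lower as well, with 11 of 12 below 0 and a median of -0.59, the largest Ifi44l (-2.81), Oas2 (-2.18), Ifit2 (-0.86) and Stat2 (-0.81), and 10 of 12 p53 targets lay below 0 (median -0.20).

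**Figure D5:**
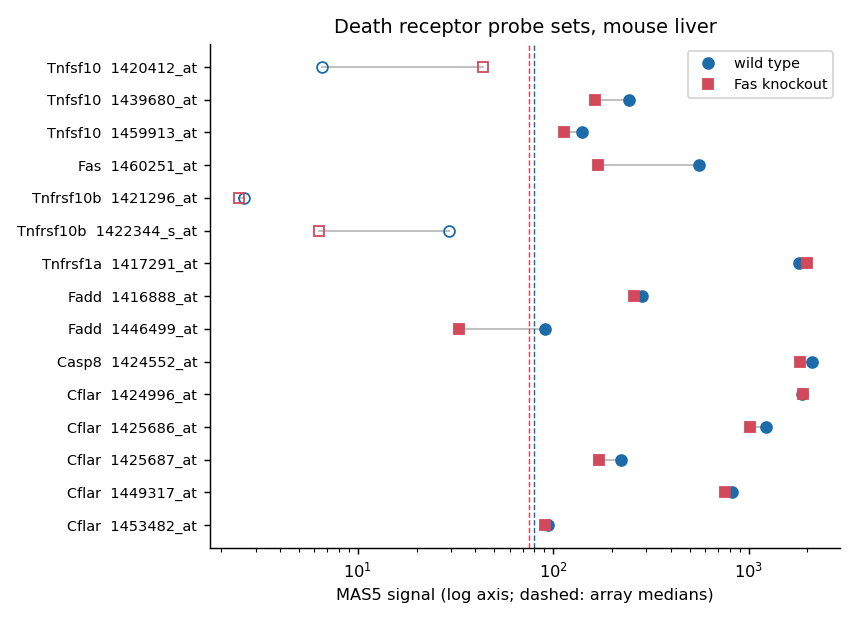
MAS5 signal (log axis) of the 15 mouse death receptor probe sets in wild-type (circles) and Fas knockout (squares) liver, 1 array each, joined by a grey line; dashed lines are the array medians and open symbols probe sets below both. Fas and Fadd 1446499_at are the filled pairs with the widest gap, and Cflar, Casp8 and Tnfrsf1a lie close together.

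Of the wider pathway lists, 0 of 32 kept mouse genes were 2-fold from wild type, where 4.34% of all genes were, with a median of -0.02. Bid was at 643 and 619 (-0.05), Ripk3 at 77.5 and 98.4 (0.28), and the 3 kept necroptosis genes lay above 0 (median 0.25). The mouse decoy receptors of TRAIL, Tnfrsf22 and Tnfrsf23, were below the median in both livers, at 66.3 and 7.73 and at 20.9 and 9.68. Faslg was not analysed here in the mouse.

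Genes with a like pattern over the 3 human comparisons were sought among 8928 bright genes, as a description only, by the Euclidean distance of their log2 ratios from that of the brightest probe set. For FAS the 5 nearest were SIGLEC15 (distance 0.315), LBH (0.357), ABI3BP (0.359), THBS1 (0.371) and HES1 (0.413). THBS1, which encodes the matrix protein thrombospondin-1, was at -0.93, -1.29 and -1.13 (HeyA8 shRNA4, HeyA8 shRNA6, HepG2 shRNA6), and HES1, a Notch target, at -0.82, -1.02 and -1.09. For TNFSF10 they were TSPAN13 (0.247), ENPP2 (0.283), KLF2 (0.390), ZNF804A (0.396) and UNC93A (0.433). ENPP2, which encodes the enzyme autotaxin, was at 1.81 in HepG2, and KLF2, a transcription factor, at 1.40. None of these 5 is on the interferon list, and the HeyA8 values of TNFSF10 that enter the distance are below the array median.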

How the data were processed

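The deposited intensities come from MAS5, per the submitters' processing notes (version not given in the sources used here). Each array had been scaled before deposit. Control probe sets (62 human, 64 mouse) were left out, and probe sets with several symbols (1801 and 932) or none (11721 and 9160) named no gene. Ratios used log2(signal + c), with c the 25th percentile of a table. Human arrays were fitted with limma 3.58.1 in R 4.3.3 (trended prior variance, 2 residual degrees of freedom, 1 with the interaction term), after the code was tested on simulated data. Labels do not name separate cultures, so p-values measure only the spread between these samples. Genes of lists took their brightest probe set, those marked _x_at where there was no other. Named were all members, FASLG, BID and RIPK3 (1 further gene of this rule is not reported here), list genes past 2-fold (at most 6 of the pathway, the 4 largest of others) and the 5 nearest in pattern. Members and lists were chosen with earlier results of these data known. Alternatives were other pseudocounts, scalings, filters, size limits, 1 probe set per gene, a fit with no cell line term or variance trend, and each array left out.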

Additional observations from a re-analysis of the deposited data

How the results depend on the processing

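Each group has 1 array, so replicate numbers pair no samples. The cell line term of the fit sets knockdown against control within each line, and the fit on the control and shRNA6 pair of each line (without HeyA8 shRNA4) called 0 of 32 for the common effect and 20 between the lines. Counts of probe sets past the size limit moved with the limit and with the probe sets counted. For HeyA8 shRNA4 the 2 became 8 at 1.5-fold, 0 at 3-fold, 0 with 1 probe set per gene and 4 with no filter. For HeyA8 shRNA6 the 4 became 7 at 1.5-fold, 2 at 3-fold and 1 with 1 probe set per gene. For HepG2 the 5 became 8 at 1.5-fold, 1 at 3-fold and 1 with 1 probe set per gene. For mouse liver the 2 became 1 at 3-fold, with 1 probe set per gene, with 4 times the pseudocount, with equal medians and with the stricter filter. The 20 calls between the cell lines became 7 of 9 with 1 probe set per gene (58.0% of all genes), and ran from 11 to 20 with 1 array left out. Effects that changed sign were all uncalled. Between the lines these were CASP8 207686_s_at (0.0016 with 4 times the pseudocount, -0.19 to 0.14 with 1 array left out), CFLAR 209508_x_at (-0.14 to 0.30 with 1 array left out), 211862_x_at (-0.076 to 0.55 likewise) and 214486_x_at (-0.0012 with quantile normalization, -0.12 to 0.21 with 1 array left out), TNFRSF10A 241371_at (-0.12 to 0.37 with 1 array left out) and TNFRSF10B 210405_x_at (-0.027 with quantile normalization). In the common effect 18 of 32 changed sign with 1 array left out, 0 of 4 of FAS and 8 of 12 of CFLAR; those of TNFSF10 were 202688_at (-0.23 without either HepG2 array, up to 1.67 without the HeyA8 control) and 214329_x_at (-0.67 and 1.38 likewise, -0.33 with no cell line term). Without either HepG2 array the common effect rests on the HeyA8 arrays alone, and without the HeyA8 control on the HepG2 pair alone. Beyond this, the cause of the sign changes was not tested. With arrays scaled to equal medians, the HepG2 median over all probe sets became -0.12. With the interaction term no array could be left out, since no residual degree of freedom remained. Signals near or below the array median, as for TNFSF10 in HeyA8, set no order between arrays.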
